A study of Mus musculus with 6 samples.

Results

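Transcript levels of 10 ETS family transcription factors, Erg, Fli1, Ets1, Ets2, Etv6, Spi1, Elf1, Elf2, Elk3 and Elk4, were read from a table of 53801 mouse genes. The 10 genes were taken from a list of names, with no threshold on their values, and all 10 passed the filter on low counts that left 13631 genes to test. The cells were mouse fetal liver cells of stage E12.5 to E13.5 from B6J.129(Cg) mice with the Fezh/J allele Gt(ROSA)26Sortm1.1, which expresses cas9* and EGFP from the CAG promoter. In all 6 samples the cells carried a guide against Gata1 (sgGata1), bear the name Gata1s, which usually means a shortened GATA1 protein, and expressed the microRNA miR-125b from a lentivirus. A further construct, induced with doxycycline at 1 μg/mL for 48 h in every sample, encoded Arid3a-FLAG in 3 samples and LUC in the other 3. The ARID3A protein binds DNA rich in adenine and thymine. The labels do not say whether the samples came from separate animals or transductions or how uniformly Gata1 was edited, so the p-values rest on a spread between samples that may be technical only.

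ETS proteins bind DNA through a winged helix-turn-helix domain that recognises a GGAA core. In blood, ERG sustains stem and progenitor cells, FLI1 drives megakaryocyte genes together with GATA1, and PU.1, encoded by Spi1, directs myeloid and lymphoid fates. Other ETS proteins repress transcription, as ETV6 does, or act with serum response factor downstream of ERK signalling, as the ELK proteins do.

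The gene tables had between 15728150 and 18249053 counts per library. Counts of the Arid3a construct were 3348, 3044 and 2758 where the label is Arid3a-FLAG and 0 in each LUC library. The groups separated on principal component 1 (45.3% of the variance), and component 2 (24.0%) set LUC library 2 apart. Without LUC library 2, 16.4% of tested genes passed the threshold used below. Haematopoietic genes were present at high levels, such as Gata2 at 1202 ± 199 CPM (CPM, counts scaled to library size, SD, n = 3) with LUC. Of 12 hepatocyte genes 6 had no count in any library, and Alb, the main serum protein of hepatocytes, had at most 0.131 CPM.

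The sequences that bear on Erg, the member that passed the test below, are shown first. RefSeq (GRCm38.p6) gave start sites for 7 of the 10 genes; Fli1, Ets1 and Spi1 were not matched. Erg has 3 start sites in that table. The 250 bases before each are printed 5′ to 3′ in the gene's direction, with matches in capitals. The motifs searched, on either strand, were ATTAAA, which is a hexamer of the kind the ARID3A protein binds, and the core of the sites of GATA factors. That core was spelled GATAA. The windows are chr16:95586594-95586843, chr16:95530366-95530615 and chr16:95459349-95459598, all on the minus strand. The upstream window of Elf1, chr14:79480944-79481193 on the plus strand, is also shown. Its GC content, 71.6%, is well above that of the Erg windows.
Erg start 1: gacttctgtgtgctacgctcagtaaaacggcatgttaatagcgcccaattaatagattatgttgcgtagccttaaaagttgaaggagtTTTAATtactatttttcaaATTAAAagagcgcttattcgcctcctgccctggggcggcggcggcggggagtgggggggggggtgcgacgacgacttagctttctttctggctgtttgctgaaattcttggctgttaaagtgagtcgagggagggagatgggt
Erg start 2: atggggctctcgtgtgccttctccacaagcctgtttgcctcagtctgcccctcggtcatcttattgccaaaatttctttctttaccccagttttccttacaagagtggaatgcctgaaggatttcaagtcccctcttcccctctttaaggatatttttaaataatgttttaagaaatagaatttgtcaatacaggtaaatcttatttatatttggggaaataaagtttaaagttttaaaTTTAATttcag
Erg start 3: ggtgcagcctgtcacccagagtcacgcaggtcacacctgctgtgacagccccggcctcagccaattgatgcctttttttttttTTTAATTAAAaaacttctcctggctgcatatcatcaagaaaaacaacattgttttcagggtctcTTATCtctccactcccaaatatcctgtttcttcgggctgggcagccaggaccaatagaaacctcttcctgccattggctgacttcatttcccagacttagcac
Elf1 start 1: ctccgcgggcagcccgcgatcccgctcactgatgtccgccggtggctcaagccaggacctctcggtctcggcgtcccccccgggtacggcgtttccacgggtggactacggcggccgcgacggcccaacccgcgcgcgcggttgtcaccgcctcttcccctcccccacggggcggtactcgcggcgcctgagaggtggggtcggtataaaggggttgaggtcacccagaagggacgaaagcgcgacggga

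The hexamer ATTAAA was in all 3 Erg windows, with 2, 1 and 2 matches, and those of start 3 overlap each other. It was in none of the 10 windows of the other 6 matched genes. It was in 12.65% of all 32851 windows. The Erg windows had a GC content of 48.8%, 36.0% and 47.2%. Among the other members only Elf1 start 2, at 43.2%, was under 50%, and the rest had 60.4% to 79.2%. Among the 13507 windows with under 50% GC the share with ATTAAA was 24.14%. The windows of the other members were thus mostly unlike those of Erg in base content. The part of base content in the absence of ATTAAA was not tested. GATAA was in 1 of 13 member windows, Erg start 3, against 22.58% of all windows and 36.6% of those with under 50% GC. The ETS motif CGGAAG, searched on both strands, was in 3 of 13 member windows, Elf2 start 2 and Elk4 starts 1 and 3. These windows had 64.8%, 68.0% and 67.2% GC. The motif was in 13.59% of all windows and in 4.59% of those with under 50% GC. All of these motif counts are matches of letters in short windows, and gene counts do not show which Erg start was used.

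All cells also received miR-125b. Its mature sequence is given with the seed, bases 2 to 8, in capitals.
miR-125b-5p: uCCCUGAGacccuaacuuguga
The complement of that seed, CTCAGGG, was found in the 3′ untranslated region of 4 of the 10 genes in the longest coding transcript of GENCODE M21. Ets1, Ets2 and Etv6 had 1 match each and Elk4 had 2, while Erg, Fli1, Spi1, Elf1, Elf2 and Elk3 had none. Of 11592 tested coding genes with a sequence 15.8% held a match. The untranslated regions of the 10 genes had a median of 2254.5 bases, against 1139 over those coding genes. Both groups carried miR-125b, so the comparison below does not measure its effect.

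Erg fell with Arid3a-FLAG, and no other of the 10 genes passed the test. Erg (ENSMUSG00000040732, chromosome 16, 95359169 to 95586593, minus strand, mm10) had 76.3, 62.6 and 72.2 CPM in LUC cells against 30.0, 29.1 and 38.5 CPM in Arid3a-FLAG cells. Every LUC library was above every Arid3a-FLAG library, and the lowest LUC value was well clear of the highest Arid3a-FLAG value. The mean was 70.4 ± 6.99 and 32.6 ± 5.19 CPM (SD, n = 3), a 2.16-fold fall. The log2 fold change was -1.11 (SE 0.13, 95% interval -1.39 to -0.83, edgeR adjusted p = 0.00088). Over all genes tested 7.29% passed the threshold of an adjusted p under 0.05, and 3.87% did so as lower, so 1 call among 10 genes is near the background. Erg ranked 57th of 13631 by p, and 137 of the 527 genes called lower fell further than Erg. Its call held whichever of the 6 libraries was left out, with a log2 fold change between -1.25 and -1.03. In these bulk samples fewer cells that express a gene and less of its RNA per cell cannot be told apart.

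**Figure D1:**
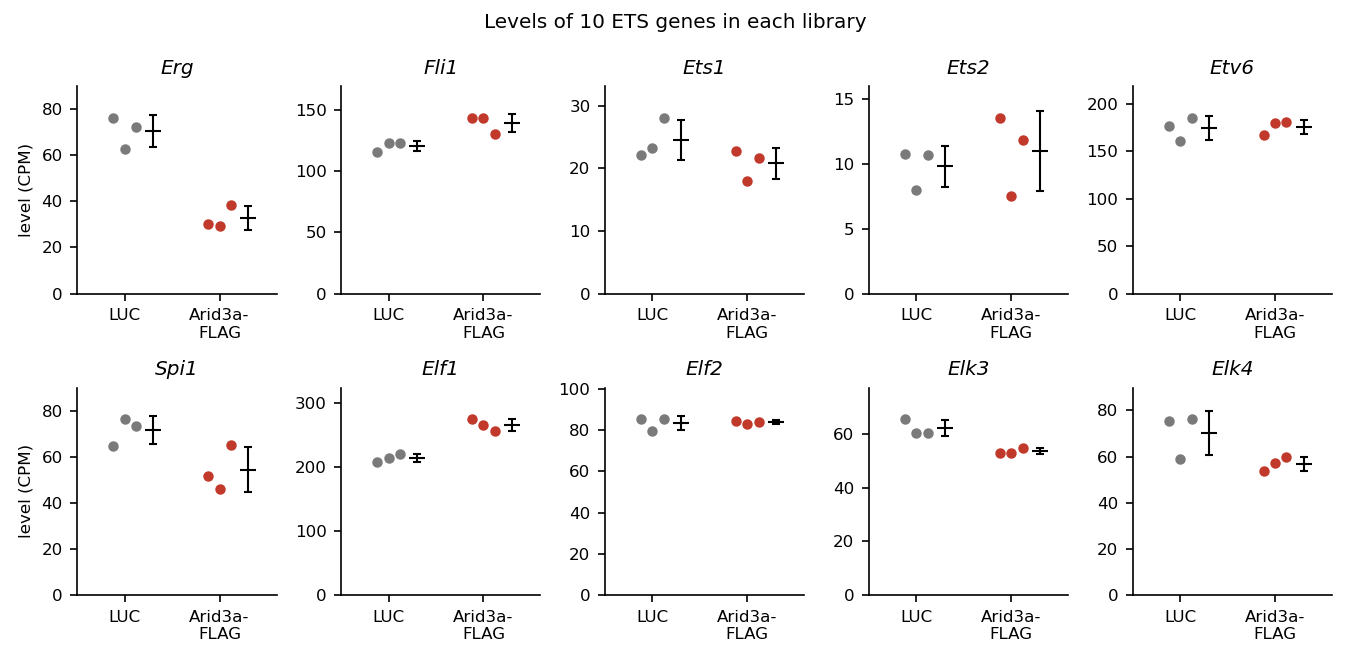
Level in CPM, scaled by TMM factors, of each of the 10 ETS genes in the 3 LUC (grey) and 3 Arid3a-FLAG (red) libraries; black marks are the mean and SD, and each vertical axis starts at 0. Erg lies between 62.6 and 76.3 CPM with LUC and between 29.1 and 38.5 CPM with Arid3a-FLAG, while Etv6 and Elf2 overlap between the groups.

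Fli1, the closest relative of Erg and a megakaryocyte factor, did not fall with it. Fli1 (ENSMUSG00000016087, chromosome 9, 32422204 to 32542861, minus strand) had 116, 123 and 123 CPM in LUC cells against 143, 144 and 131 CPM in Arid3a-FLAG cells. The groups did not overlap, but the difference was small, with the log2 fold change being 0.21 (SE 0.08, 95% interval 0.02 to 0.40, edgeR adjusted p = 0.156). Without LUC library 2 it passed the threshold, at 0.24 (edgeR adjusted p = 0.037). Counts of Erg and Fli1 divided by exon length gave 0.662, 0.513 and 0.590 Erg per Fli1 with LUC and 0.211, 0.204 and 0.296 with Arid3a-FLAG. Every Arid3a-FLAG library had the lower ratio, and this ratio does not depend on library scaling. The mean log2 ratio went from -0.77 ± 0.19 to -2.10 ± 0.30 (SD, n = 3), a 2.51-fold shift. The exact two-sided permutation test gave p = 0.1, the smallest that 3 against 3 libraries allow, and 0.2 after adjustment over the 4 pairs compared.

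Among the other pairs of close relatives, the ratio of Elf1 to Elf2 was also separated, and the remaining pairs were not. The log2 ratio of Elf1 to Elf2 was 1.87 ± 0.07 with LUC and 2.17 ± 0.05 with Arid3a-FLAG (SD, n = 3, exact permutation p = 0.1, adjusted 0.2). For Ets1 to Ets2 it was 0.77 ± 0.26 and 0.40 ± 0.26 (exact permutation p = 0.2, adjusted 0.267). For Elk3 to Elk4 it was 0.33 ± 0.19 and 0.42 ± 0.06 (exact permutation p = 0.5).

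**Figure D2:**
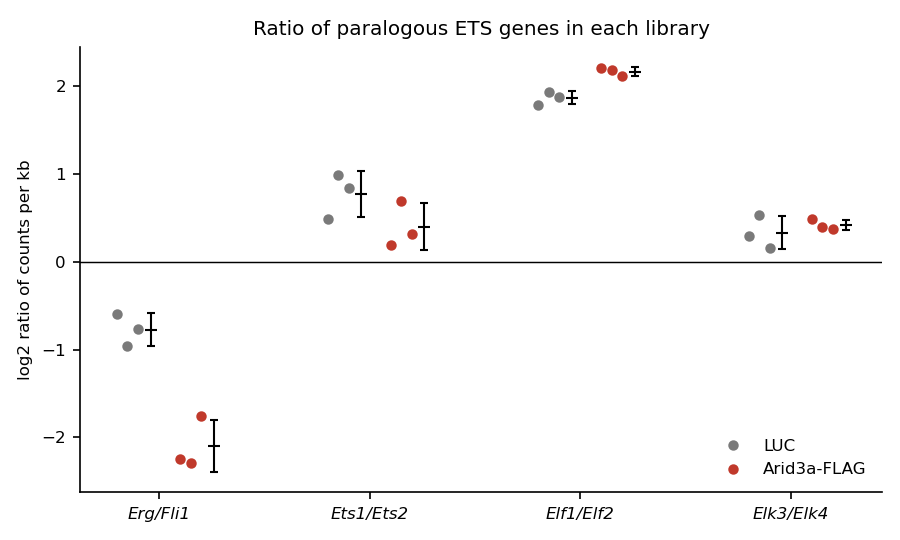
Log2 ratio of counts per kb of exon for 4 pairs of related ETS genes in each library, LUC in grey and Arid3a-FLAG in red, with the mean and SD in black. The Erg/Fli1 ratio drops from a mean of -0.77 to -2.10, and the Elk3/Elk4 ratios of the groups overlap.

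Elf1 and Elf2 encode related activators that are broadly expressed in blood cells. Elf1 (chromosome 14, 79481194 to 79582494) had 208, 214 and 220.5 CPM in LUC cells against 275, 266 and 256 CPM in Arid3a-FLAG cells. The Arid3a-FLAG libraries were all higher, the log2 fold change being 0.31 (SE 0.08, 95% interval 0.12 to 0.50), and the edgeR adjusted p of 0.051 lay just outside the threshold. DESeq2 (adjusted p = 0.0090) and limma-voom (adjusted p = 0.046) called it, as did 6 more of the 15 alternatives, over which the adjusted p ran from 0.0067 to 0.219. Without LUC library 2 or 3 the edgeR adjusted p was 0.0067 or 0.046. Elf1 shares 327 exon bases with Wbp4 on the opposite strand, so part of its count is uncertain; Wbp4 had 606 to 651 counts with LUC and 604 to 638 with Arid3a-FLAG. Elf2 (chromosome 3, 51252720 to 51340663) had 85.3, 79.4 and 85.2 CPM in LUC cells against 84.6, 83.1 and 84.1 CPM in Arid3a-FLAG cells. The groups overlapped and the interval of the log2 fold change, -0.17 to 0.19, leaves room for small changes only. Elf2 shares 371 exon bases with 4930577N17Rik on the opposite strand, so part of its count is uncertain too. Counts of 4930577N17Rik were 25 to 37 with LUC and 36 to 41 with Arid3a-FLAG.

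Spi1, which encodes PU.1, had 64.8, 76.4 and 73.6 CPM in LUC cells against 51.8, 46.1 and 65.1 CPM in Arid3a-FLAG cells. Arid3a-FLAG library 3 reached into the LUC range. The log2 fold change was -0.40 (SE 0.13, 95% interval -0.68 to -0.11, edgeR adjusted p = 0.089). Without Arid3a-FLAG library 3 it was -0.55 and passed (edgeR adjusted p = 0.041), and with no filter on low counts it passed at -0.38 (edgeR adjusted p = 0.019). Spi1 lies on chromosome 2, 91082390 to 91115756, plus strand.

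Etv6, a repressor needed for blood stem cells in bone marrow, was level between the groups. It had 177, 161 and 186 CPM in LUC cells against 168, 180 and 181 CPM in Arid3a-FLAG cells, with a log2 fold change of 0.01 (95% interval -0.19 to 0.21, edgeR adjusted p = 0.948). Etv6 lies on chromosome 6, 134035700 to 134270158, plus strand.

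Ets1 and Ets2, the founding members of the family, were the least abundant of the 10 genes. Ets1 (chromosome 9, 32636221 to 32757820, plus strand) had 22.1, 23.2 and 28.1 CPM in LUC cells against 22.7, 17.9 and 21.7 CPM in Arid3a-FLAG cells. Ets2 (chromosome 16, 95702075 to 95721051, plus strand) had 10.8, 7.98 and 10.7 CPM in LUC cells against 13.6, 7.55 and 11.9 CPM in Arid3a-FLAG cells. In both genes the groups overlapped. The intervals of the log2 fold changes were -0.54 to 0.06 for Ets1 and -0.33 to 0.64 for Ets2, which had 122 to 219 counts per library and the widest interval of the 10.

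Elk3 and Elk4 are ternary complex factors that bind beside serum response factor. Elk3 (chromosome 10, 93247414 to 93311135, minus strand) had 65.7, 60.7 and 60.6 CPM in LUC cells against 53.1, 53.1 and 55.1 CPM in Arid3a-FLAG cells. The groups did not overlap, but the log2 fold change of -0.21 (95% interval -0.41 to -0.02) did not pass (edgeR adjusted p = 0.157). Elk4 (chromosome 1, 132007607 to 132032612, plus strand) had 75.3, 59.1 and 76.2 CPM in LUC cells against 53.6, 57.0 and 59.8 CPM in Arid3a-FLAG cells, where LUC library 2 lay among the Arid3a-FLAG values. Its log2 fold change was -0.31 (95% interval -0.56 to -0.06, edgeR adjusted p = 0.122), and -0.40 without LUC library 2 (edgeR adjusted p = 0.0044). Elk3 shares 316 exon bases with Cdk17 and Elk4 shares 84 with Mfsd4a on the opposite strands, so both values are uncertain.

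Over the 10 genes, 5 had log2 fold changes above 0 and 5 below, with a median of -0.10 against -0.03 for all tested genes. At an unadjusted p under 0.05 there were 2 higher and 4 lower, against 25.6% of all tested genes in either direction. The groups did not overlap for 4 of the 10 genes, against 33.1% of all tested genes. The 95% interval of Erg, -1.39 to -0.83, did not reach that of any other tested ETS gene, the nearest being Spi1 with a lower bound of -0.68.

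**Figure D3:**
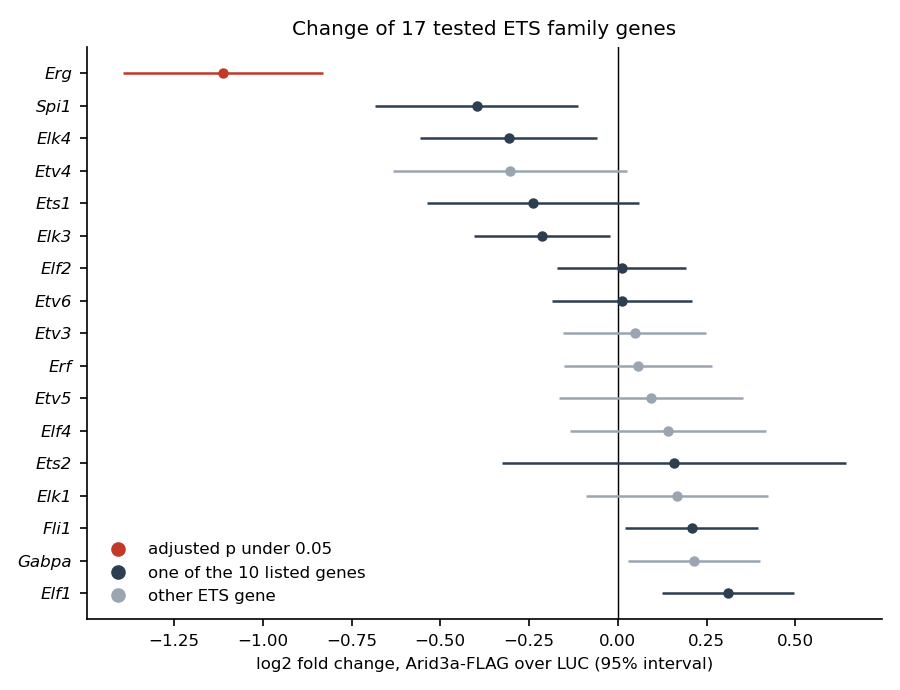
Log2 fold change of Arid3a-FLAG over LUC for the 17 ETS genes that passed the filter on low counts, with 95% intervals; red marks an adjusted p under 0.05, dark blue the listed genes and light grey other ETS genes. Erg, at -1.11, lies apart from the rest, which run from -0.40 for Spi1 to 0.31 for Elf1.

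The table held 17 further ETS family genes, among them Etv3l, which is annotated as a pseudogene, and 7 of the 17 passed the filter on low counts. None passed the threshold in edgeR or by DESeq2 or limma-voom; at an unadjusted p under 0.05 only Gabpa did. Gabpa, the DNA-binding subunit of GABP, had 82.6 ± 3.34 CPM in LUC cells against 95.8 ± 4.03 CPM in Arid3a-FLAG cells (SD, n = 3), or 0.21 on the log2 scale (edgeR adjusted p = 0.145, and 0.022 without LUC library 2). Gabpa shares 397 exon bases with Atp5j on the opposite strand, which leaves its value uncertain. The log2 fold changes were -0.30 for Etv4, 0.05 for Etv3, 0.06 for the repressor Erf, 0.09 for Etv5, 0.14 for Elf4 and 0.17 for Elk1. Etv1, Elf5, Ehf, Fev and Spic had no count in any library, and Etv2, Etv3l, Elf3, Spib and Spdef had 0 to 9 counts per library.

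Levels of different genes were compared as CPM per kb of exon. With LUC the order began with Fli1 at 34.6 ± 1.175, Elf1 at 31.8 ± 0.93, Etv6 at 29.2 ± 2.06, Spi1 at 26.6 ± 2.25 and Erg at 20.3 ± 2.02 (SD, n = 3). Fli1 was above Elf1 in every LUC library, Elf1 and Etv6 overlapped, as did Etv6 and Spi1, and Spi1 stood above Erg. With Arid3a-FLAG, Fli1 (39.96 ± 2.12) and Elf1 (39.4 ± 1.38) overlapped at the top, and Erg, at 9.40 ± 1.496, was ninth of the 17 tested ETS genes and overlapped Etv5, which followed it. Ets2 was the lowest of the 17 in both groups. Other places in this order depend on exon length, counted here over all annotated exons. The longest transcript of Elf1 has 4235 of its 6737 exon bases, and that of Fli1 has 3318 of 3486. By longest transcript Elf1 would stand above Fli1 with LUC. Elf2 (5919 of 9563 bases) and Elk4 (4433 of 6407) would likewise stand above Erg (3249 of 3466) with Arid3a-FLAG.

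The sum over all 27 ETS genes was alike in the groups, at 249.8 ± 9.15 CPM per kb with LUC and 246.5 ± 3.53 with Arid3a-FLAG (SD, n = 3). The share of Erg in that sum was 8.94%, 7.44% and 8.001% with LUC and 3.56%, 3.43% and 4.44% with Arid3a-FLAG. The share of Fli1 went from 13.9% ± 0.57 to 16.2% ± 1.08, that of Elf1 from 12.7% ± 0.31 to 15.999% ± 0.78 and that of Spi1 from 10.6% ± 0.96 to 8.17% ± 1.36. Shares of one sum depend on each other. Exon length is counted over all annotated exons, and with the longest transcript instead the difference went from -4.32 to -3.82 percentage points for Erg and from 3.27 to 4.16 for Elf1.

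**Figure D4:**
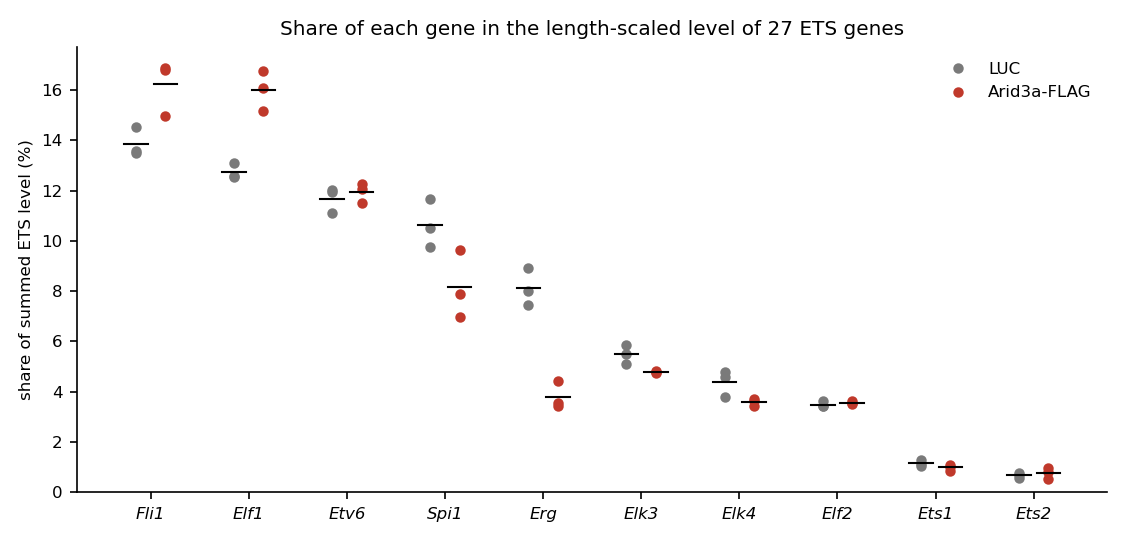
Share of each listed gene in the summed level per kb of 27 ETS genes, in percent, by library, LUC in grey and Arid3a-FLAG in red, with a black line at the mean. Erg goes from a mean of 8.13% to 3.81%, while Etv6 stays at 11.7% and 11.9%.

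Erg lies 115 kb from Ets2 on chromosome 16, and Fli1 lies 93.4 kb from Ets1 on chromosome 9. Erg, Ets2 and Gabpa are in the mouse counterpart of the human chromosome that is trisomic in Down syndrome. Within 500 kb of Erg the tested genes were Ets2, Psmg1 and Brwd1, and none was called. Psmg1 had a log2 fold change of -0.25 (edgeR adjusted p = 0.301) and Brwd1 of 0.05 (edgeR adjusted p = 0.797). Around all 10 genes 65 other genes were tested within 500 kb, of which 3 were called lower and 0 higher in edgeR. Over all tested genes 3.87% were called lower and 3.43% higher, so 3 calls among 65 genes are near the background. DESeq2 called 2 higher, and edgeR called 3 higher without LUC library 2 and 1 without LUC library 3. The number called lower was 0 in the fit without LUC library 1 or 3 or without Arid3a-FLAG library 1 or 2, 1 without Arid3a-FLAG library 3 and 5 without LUC library 2. The 3 genes were Ddb2 near Spi1 (-0.67, edgeR adjusted p = 0.042) and Slc45a3 (-0.94, 0.044) and Cdk18 (-0.55, 0.042) near Elk4.

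The genes whose profile over the 6 libraries was most like that of Erg were Angptl2, Mfsd13a, Sept1, Fgf3 and Lpcat2, out of 7456 named genes with a mean of at least 20 CPM. Likeness was the root mean square difference of log2 CPM, centred per gene, and it was 0.13 to 0.18 for these genes. Angptl2, an angiopoietin-like secreted protein, had 46.5, 44.0 and 52.1 CPM in LUC cells against 22.7, 24.1 and 26.4 CPM in Arid3a-FLAG cells. The nearest member was Spi1, at 0.38, and the farthest was Elf1, at 0.73.

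Of 13 tested partner factors of ETS proteins in blood, 1 rose and 12 did not pass, with a median of 0.10. Over all tested genes 7.29% were called, 3.43% as higher and 3.87% as lower, so 1 call among 13 is near the background. The same shares apply to the counts of called genes in the lists that follow. Tal1, a helix-loop-helix factor of the same stem cell network, rose by 0.38 on the log2 scale, between means of 335 ± 34.8 and 436 ± 5.48 CPM (SD, n = 3, edgeR adjusted p = 0.044). No partner was called higher once LUC library 1 or any single Arid3a-FLAG library was left out, and 3 were higher and 1 lower without LUC library 2. Runx1 had a log2 fold change of 0.31 (edgeR adjusted p = 0.105), Gabpb2 of 0.34 (0.108) and Zfpm1, which encodes the GATA1 cofactor FOG1, of 0.24 (0.156). Gata1 had 286 ± 29.0 and 326 ± 6.13 CPM (edgeR adjusted p = 0.249), and counts do not tell edited from unedited transcripts.

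Among 20 megakaryocyte genes that ETS and GATA factors are known to regulate, 6 rose, 1 fell and 13 did not pass, with a median log2 fold change of 0.34. The rises were those of Thbs1 (2.58), Itgb3 (0.97), Gp1bb (0.82), Gp9 (0.69), Gp5 (0.63) and Clec1b, and Ppbp fell by 1.01 on the log2 scale.

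Of 14 tested genes linked to ERG and FLI1 in stem cells, 3 fell, with a median of -0.14. Angpt1, the ligand of the receptor TIE2, fell from 213 ± 5.31 to 155 ± 8.06 CPM (-0.46, edgeR adjusted p = 0.012), and Zfp521 (-0.86, 0.017) and Hlf (-1.05, 0.043) were also lower. Kit stood at 145 ± 17.9 and 152 ± 43.8 CPM. Leaving out LUC library 1 or 3 or Arid3a-FLAG library 1 left 1 fall, leaving out Arid3a-FLAG library 2 left 0, and there were 4 without LUC library 2.

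Of 18 tested myeloid targets of PU.1, 1 rose and 2 fell, with a median of -0.11. Csf1r, the macrophage colony-stimulating factor receptor, rose from 2.62 ± 0.689 to 7.89 ± 0.651 CPM (1.59, edgeR adjusted p = 0.0030), while Irf8 (-0.72, 0.032) and the granule protease Prtn3 (-1.01, 0.035) fell. Neither fall was called without LUC library 1 or without Arid3a-FLAG library 1 or 2, 1 was without LUC library 3, and 2 genes rose without LUC library 2.

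Of 16 tested targets of serum response factor and the ternary complex factors, 4 rose and none fell in edgeR, with a median of 0.46. No fall was called by DESeq2 or limma-voom either. Vcl, the focal adhesion protein vinculin, rose from 135 ± 15.8 to 232 ± 13.4 CPM (0.78, edgeR adjusted p = 0.0021), and the antiproliferative gene Btg2 rose by 0.58 (0.012). Fosb had 0.347, 0.262 and 0.540 CPM in LUC cells against 5.96, 2.84 and 17.4 CPM in Arid3a-FLAG cells, and Fos had 1.33, 0.392 and 1.08 CPM against 6.83, 1.80 and 8.04 CPM. Both were higher in each Arid3a-FLAG library and varied widely among them. Without Arid3a-FLAG library 1 the rises numbered 2. Srf itself did not pass (0.21, edgeR adjusted p = 0.304).

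ERG, FLI1 and ETS1 are also made by endothelial cells, so markers of these and other cells were measured. Of 21 endothelial markers 8 were tested; Cdh5, Sox17 and Cldn5 had no count in any library. Their summed level was 246 to 286 CPM in LUC cells against 225 to 247 CPM in Arid3a-FLAG cells, most of it from Pecam1 and Egfl7, which blood cells also express. Kdr, an endothelial growth factor receptor, was higher (2.32) from 0.345 ± 0.136 CPM, and Egfl7 was lower (-0.41), a call lost without LUC library 3 or any 1 of the Arid3a-FLAG libraries.

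The summed markers of mast cells and basophils and of lymphoid cells were lower with Arid3a-FLAG, and those of neutrophils overlapped between the groups. Mast cell and basophil markers summed to 2736 to 3359 CPM in LUC cells against 1341 to 2190 CPM in Arid3a-FLAG cells, and 5 of 12 tested fell (3 without Arid3a-FLAG library 1, 8 without library 3). Lymphoid markers summed to 31.3 to 42.9 CPM and 8.13 to 8.73 CPM, with 3 of 4 tested lower (1 without Arid3a-FLAG library 1 or 2 or LUC library 1) and Cd8a, Ms4a1, Ebf1 and Rag1 at 0. Neutrophil markers summed to 25.9 to 29.7 CPM and 12.54 to 26.6 CPM, with 3 of 4 tested lower (1 without Arid3a-FLAG library 1 or 2 or LUC library 1) and Ly6g and Retnlg at 0. Monocyte and macrophage markers summed to 24.5 to 29.6 CPM and 31.6 to 41.7 CPM, with 1 of 8 tested higher (2 without LUC library 3 and with the replicate block) and Marco at 0. None of the 8 was called lower in the edgeR fit to all 6 libraries (1 at an unadjusted p under 0.05), while 1 was without Arid3a-FLAG library 3, with DESeq2 and with the replicate block. Erythroid markers summed to 1050 to 1171 CPM and 1244 to 1455 CPM, with 5 of 15 tested higher and 1 lower (2 lower without LUC library 2) and Slc4a1, Tspo2 and Icam4 at 0. The 1 hepatocyte gene tested, Afp, did not pass (edgeR adjusted p = 0.245), and the list summed to 20.3 to 27.3 CPM in LUC cells against 16.3 to 20.4 CPM in Arid3a-FLAG cells. The part of these cell types in the level of Erg was not tested.

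**Figure D5:**
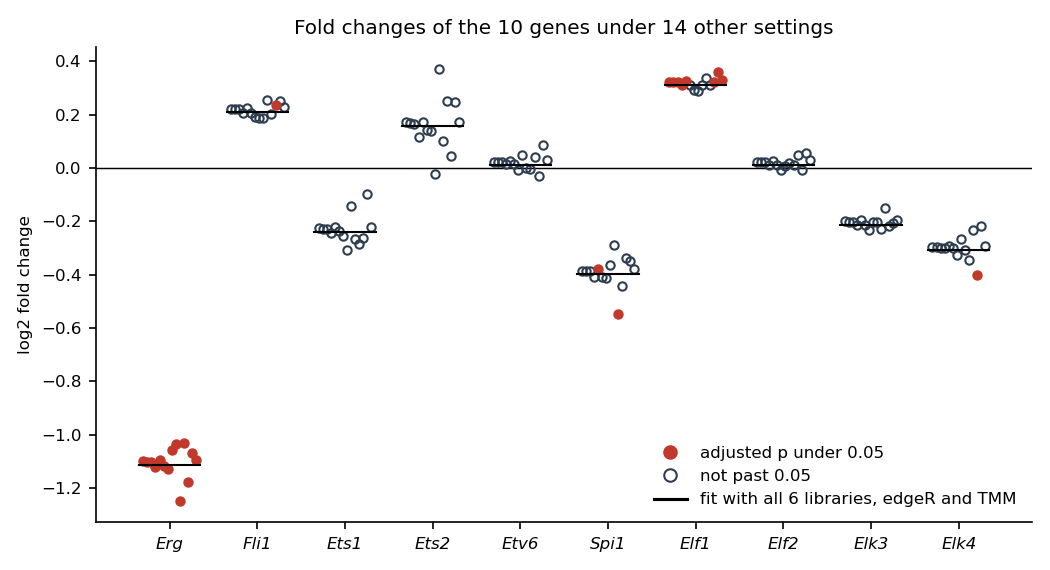
Log2 fold change of each listed gene under 14 other settings (other scaling factors, filters and tests, a replicate block, and each library left out), red where the adjusted p is under 0.05, with a black line for the edgeR fit to all 6 libraries. Erg is called in every setting, between -1.25 and -1.03, and Elf1 in 8 of them.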

How the data were processed

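RNA was sequenced from 3 Arid3a-FLAG and 3 LUC samples, grouped by their titles. The authors deposited read counts per gene, whole numbers without normalization; the tools were featureCounts, HISAT2 2.0.5 and fastp on mm10, per the submitters' processing notes. For settings, annotation release and strand, the sources used here give nothing. Symbols, positions and exon lengths came from GENCODE M21 on GRCm38 (mm10) by Ensembl identifier, with 95 identifiers unmatched; these held 0.0107% to 0.0170% of a library's counts.

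The construct row was kept out of totals and tests. The test was that of edgeR 4.0.16 under R 4.3.3 (filterByExpr defaults, TMM factors, glmQLFit and glmQLFTest, group as the only term, two-sided), with Benjamini-Hochberg adjustment over the 13631 genes tested. CPM used TMM-scaled library sizes. The standard error is the size of the log2 fold change over the square root of F. Alternatives used DESeq2 1.42.0, limma-voom (limma 3.58.1), other factors and filters, a replicate block and each library left out.

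The 10 genes and the 14 lists were chosen with earlier results of these data known. Named besides the ETS genes were per list up to 4 members of smallest p (2 higher and 2 lower if calls went both ways), the 5 genes most like Erg and called neighbours. Other called genes of the lists, Kit, Alb, Gata2, Srf, Psmg1 and Brwd1 were named after their values were seen. Some genes of the lists are not reported here. Promoter windows and miR-125b came from RefSeq tables (GRCm38.p6). Replicates differed beyond sampling noise, so each counted as 1 sample.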

Additional observations from a re-analysis of the deposited data

How the results depend on the processing

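The log2 fold change of Erg kept its direction and its call in all 15 alternatives run (adjusted p at most 0.011). The number of listed genes called higher was 1 with DESeq2, RLE factors, limma-voom, at least 5 CPM in 3 libraries, no filter on low counts, or the 20 most abundant genes left out; in each case this was Elf1, and the cause was not tested. With no filter 2 were lower, Erg and Spi1. With each library left out in turn, 0 to 2 were higher and 1 to 2 lower. Over all genes, 467 were higher and 527 lower. DESeq2 called 733 higher and 728 lower, no filter gave 869 and 1076, and an adjusted p under 0.01 gave 125 and 137. Leaving out a library gave 115 to 1191 higher and 118 to 1095 lower, the most without LUC library 2. None of the 4 paralogue ratios moved beyond the spread between replicates under any alternative.

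The replicate numbers are shared by the groups, but same-numbered libraries did not deviate together (correlations of -0.10, -0.11 and 0.12), and not every library correlated best with its own number. With the replicate block 410 genes were higher and 530 lower, 1 listed gene, Erg, was lower (log2 fold change -1.12) and 0 were higher. With the pairing the log2 ratio of Erg to Fli1 differed by -1.32 (exact sign-flip p = 0.25, the smallest that 3 pairs allow). With counts of 122 to 219 per library Ets2 has the least depth of the 10 genes, and its values leave room for any change within its interval. The smallest change that the test could detect was not computed.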
